A study of Homo sapiens with 12 samples.

Results

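The genes described here encode receptor tyrosine kinases, their growth factor ligands and the docking proteins closest to them. The list named 60 genes by symbol. Of these, 52 were found through the probe-to-gene table among the 14884 named genes of the array, each read from its brightest probe set by mean. The other 8 (ERBB2, TGFA, AREG, IGF2, PDGFRA, PDGFRB, NTRK2 and EPHB2) were not analysed here.

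The cells were HepG2, an established line grown from a human hepatic tumour that still makes many hepatocyte products. In all groups, controls included, 1 β-catenin allele has a deletion that takes in exon 3 sequence, so a truncated, stabilised protein is made beside the full-length one. Cells received an siRNA against both forms (sißCat-both), against the truncated form (sißCat-mut), against the full-length form (sißCat-WT), or a control siRNA (siCtrl), and were collected at 120 h, with 3 arrays in each group. The groups set the loss of either form alone against the loss of both. It is a single tumour line, and sißCat-both is its own siRNA, not stated to be a mixture of the others. Levels are log2 intensities, and a difference of 1 is a 2-fold difference. Nothing in the labels ties replicates to separate cultures. The p-values therefore cover only variation among these arrays, which may be technical.

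Receptor tyrosine kinases sit in the cell membrane, pair up when a ligand binds and phosphorylate themselves and docking proteins. The signal runs through RAS and ERK to growth genes and through PI3K and AKT to metabolism and survival. In the liver, EGF receptor and MET signals drive regeneration, the insulin receptor controls glucose and lipid metabolism, and FGFR4 with its co-receptor β-Klotho receives the gut hormone FGF19, which restrains bile acid synthesis. EPH receptors bind membrane-bound ephrins on neighbouring cells.

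Within groups, arrays had r = 0.994 to 0.997 over all genes, and 0 pairs were identical. The probe sets of the targeted gene were not analysed here, so the groups rest on the labels. Of 12 hepatocyte markers 9 were measured, and their mean level per array was 12.28 to 12.32 after sißCat-both, 12.34 to 12.40 after sißCat-mut, 11.73 to 11.79 after sißCat-WT and 11.91 to 11.96 after siCtrl. Of these 9 markers 8 were called higher after sißCat-both and 7 after sißCat-mut (adjusted p under 0.05 by limma, as set out below). These are 88.9% and 77.8%, against 33.6% and 25.6% of all genes called. After sißCat-WT 2 were called lower, 22.2% against 10.2% of all genes. Hepatocyte markers thus moved with the groups compared below. The 4 measured stellate cell or fibroblast markers averaged 4.31 to 4.63 per array and the 4 endothelial markers 4.34 to 4.67, close to the median of all probe sets (4.71 to 4.78). Above these averages stood DES (group means 5.88 to 6.74), THY1 (5.34 to 5.51) and CLDN5 (5.93 to 6.10). VWF rose by 0.37 after sißCat-both and 0.33 after sißCat-mut, and no other marker of these 2 lists was called against siCtrl. Of the 3 measured leukocyte markers LYZ (group means 11.60 to 12.72) and CD68 (9.86 to 10.51) were high in these cells and CD14 was lower (5.47 to 6.17). LYZ fell by 1.13 and CD14 rose by 0.70 after sißCat-both, LYZ fell by 0.39 and CD68 rose by 0.48 after sißCat-mut, and CD14 rose by 0.50 after sißCat-WT. Of the 4 measured cholangiocyte markers SOX9 and EPCAM fell after sißCat-both, by 1.55 and 0.38, and after sißCat-mut, by 0.88 and 0.27, while KRT7 and KRT19 were not called there. After sißCat-WT KRT19 rose by 0.52 and EPCAM fell by 0.25. The part of these markers in the results was not tested.

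A gene was called when limma's adjusted p, over all 14884 genes, was under 0.05. After sißCat-both 12 members rose and 8 fell, 38.5% of the 52, against 33.6% of all genes called in that comparison (15.5% higher and 18.1% lower). After sißCat-mut 8 rose and 5 fell, 25% of the members, against 25.6% of all genes (12% higher and 13.6% lower). After sißCat-WT 6 rose and 4 fell, 19.2%, against 10.2% of all genes (5.20% higher and 4.97% lower). The shares after sißCat-both and sißCat-mut were thus near the background. The median log2 change of the members was -0.03, -0.01 and 0.04 after sißCat-both, sißCat-mut and sißCat-WT, against -0.01, 0.01 and 0.01 over all genes. Called log2 changes of at least 1 in size were found for 7 members after sißCat-both (3.92% of all genes), 2 after sißCat-mut (2.07%) and 1 after sißCat-WT (0.531%). The arrays of the knockdown and of siCtrl did not overlap for 24 members after sißCat-both, 22 after sißCat-mut and 23 after sißCat-WT, against 43.8%, 40.7% and 30.3% of all genes. The 3 comparisons share the siCtrl arrays.

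In at least 1 knockdown against siCtrl 23 of the 52 members were called, where 43.5% of all genes were. Of the 7 measured EGF family ligands 1 was called in any knockdown against siCtrl, and of the 4 PDGF ligands 0 (limma; at an unadjusted p under 0.05, PDGFB after sißCat-mut). Of the 22 members whose mean lay under the 40th percentile of all genes 5 were called in at least 1 of the 6 comparisons made, where 19.0% of all genes at such levels were, and of the 30 at or above it 22, where 70.8% were. Both counts, and the 27 of 52 called in at least 1 comparison against 50.1% of all genes, lie near the background, and calls were fewer at low levels among all genes as among the members. In bulk RNA, fewer expressing cells and less RNA per cell cannot be told apart.

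**Figure D1:**
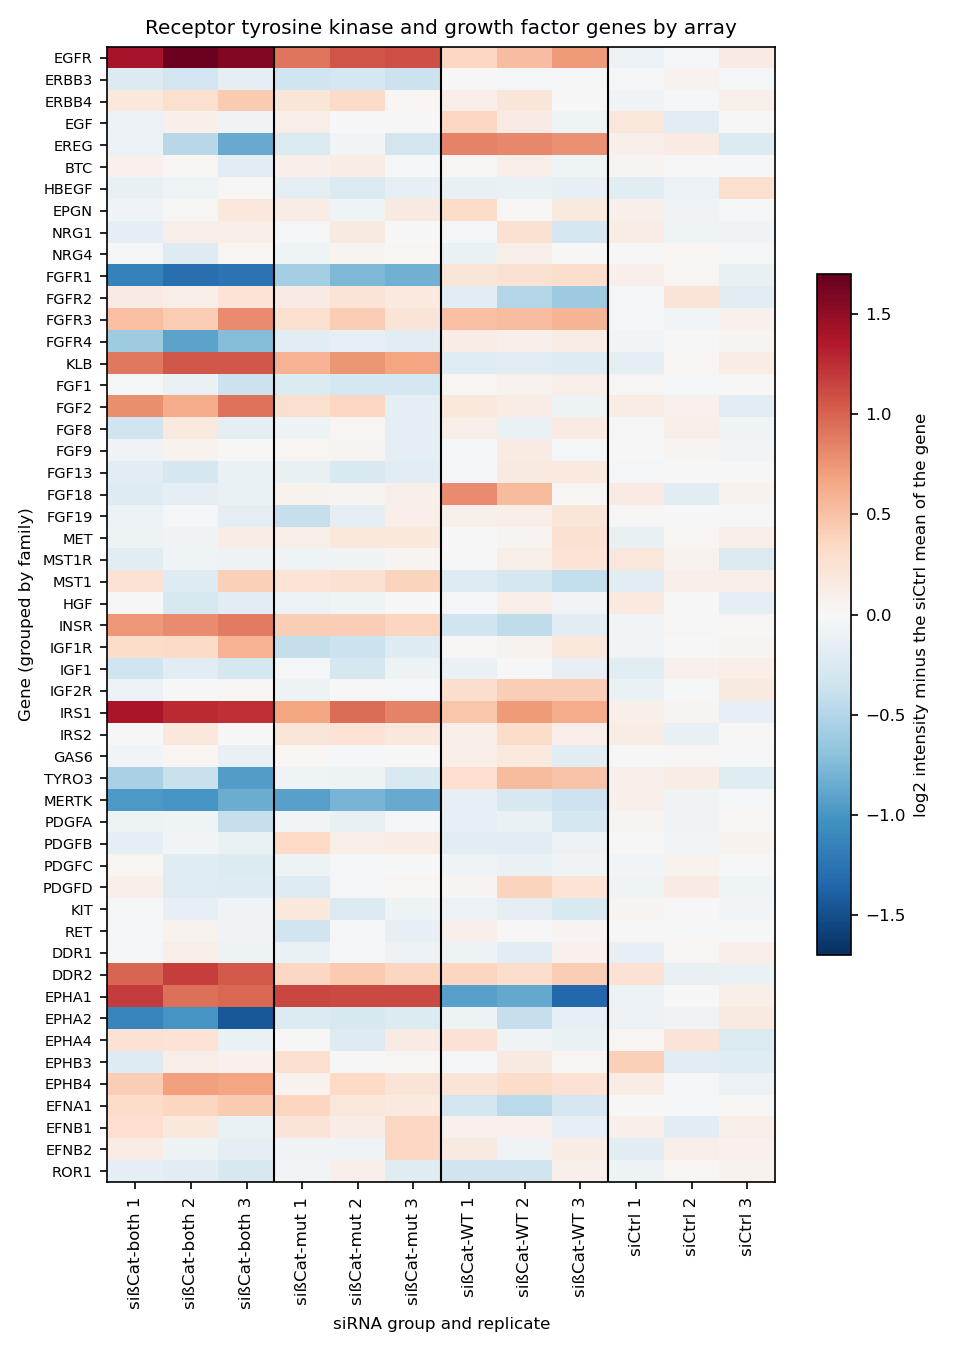
Log2 intensity of the 52 members on each of the 12 arrays, minus the siCtrl mean of the gene (red higher, blue lower; rows grouped by family, columns by siRNA and replicate). EGFR, IRS1, KLB, DDR2 and EPHA1 are red on all 3 sißCat-both arrays, FGFR1, MERTK and EPHA2 are blue there, and EPHA1 is blue on all 3 sißCat-WT arrays.

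**Figure D2:**
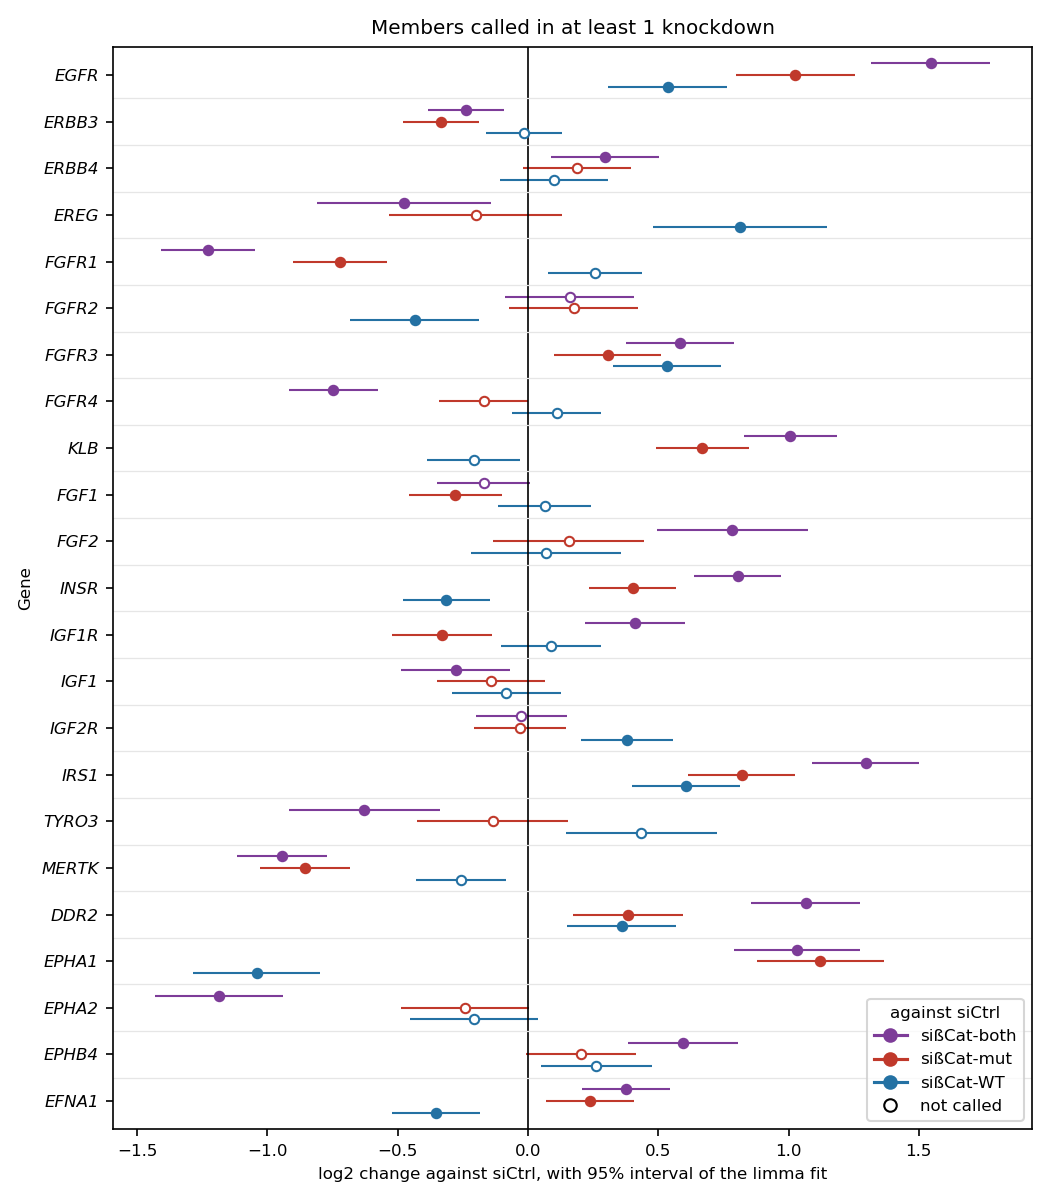
Log2 change against siCtrl with the 95% interval of the limma fit for the 23 members called in at least 1 knockdown (purple sißCat-both, red sißCat-mut, blue sißCat-WT; open points were not called). EGFR, IRS1, FGFR3 and DDR2 lie right of 0 in all 3 knockdowns, while EPHA1, INSR and EFNA1 lie right of 0 after sißCat-both and sißCat-mut and left of it after sißCat-WT.

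The promoters of 3 genes are shown as examples: EPHA1, which moved in opposite directions after the 2 single knockdowns, EGFR, which rose in all 3, and KLB, which rose after sißCat-both and sißCat-mut and holds the motif marked. Each is the 250 bases before the annotated start (RefSeq, GRCh38.p14), 5′ to 3′ on the gene's strand: EPHA1 at chr7:143408857-143409106, minus strand; EGFR at chr7:55018767-55019016, plus strand; KLB at chr4:39406680-39406929, plus strand. Capitals mark the letters CTTTGAT, the core bound by TCF/LEF factors, the DNA partners of β-catenin.
EPHA1: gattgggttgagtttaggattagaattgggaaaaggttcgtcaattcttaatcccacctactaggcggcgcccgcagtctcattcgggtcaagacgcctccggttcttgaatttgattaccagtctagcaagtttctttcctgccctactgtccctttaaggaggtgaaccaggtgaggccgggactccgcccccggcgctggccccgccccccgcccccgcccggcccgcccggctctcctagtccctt
EGFR: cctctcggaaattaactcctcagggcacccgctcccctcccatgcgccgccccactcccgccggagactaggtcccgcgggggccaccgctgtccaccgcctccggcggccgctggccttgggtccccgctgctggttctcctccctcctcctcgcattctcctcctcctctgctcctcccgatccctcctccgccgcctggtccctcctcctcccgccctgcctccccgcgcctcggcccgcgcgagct
KLB: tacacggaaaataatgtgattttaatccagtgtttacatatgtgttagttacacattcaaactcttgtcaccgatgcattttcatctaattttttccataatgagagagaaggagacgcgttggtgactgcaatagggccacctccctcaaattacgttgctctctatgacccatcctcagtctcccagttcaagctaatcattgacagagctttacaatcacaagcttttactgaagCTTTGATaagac
The core CTTTGAT, read on both strands, stood in 2 of the 44 members with a promoter entry, KLB (at position -12 from the start) and FGF18, and in 2.28% of 27305 promoters of the same length. The AP-1 core TGANTCA, where N is any base, stood in EGF and TYRO3 and in 6.60% of all promoters. The 2 motifs did not overlap in a member promoter. These are matches of letters in a short window and do not show binding. Guanine and cytosine made up 73.6% of the EGFR window, 59.2% of that of EPHA1 and 39.2% of that of KLB.

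Among the ERBB receptors, EGFR, the receptor of EGF and its relatives, rose in every knockdown. Its levels were 9.09, 9.34 and 9.25 on the sißCat-both arrays, 8.59, 8.75 and 8.77 after sißCat-mut and 8.03, 8.21 and 8.41 after sißCat-WT, against 7.57, 7.65 and 7.82 after siCtrl. No array of any group overlapped with another group, and the groups stood in the order sißCat-both, sißCat-mut, sißCat-WT, siCtrl. The log2 change was 1.55 ± 0.11 after sißCat-both (2.92-fold, adjusted p = 1.56e-07), 1.03 ± 0.11 after sißCat-mut (2.04-fold, adjusted p = 9.67e-06) and 0.54 ± 0.11 after sißCat-WT (1.45-fold, adjusted p = 0.00517; SE of the fit, n = 3 arrays per group, as in all comparisons below). Each step of that order passed the test, with EGFR 0.52 higher after sißCat-both than after sißCat-mut and 0.49 higher after sißCat-mut than after sißCat-WT (adjusted p = 0.00296 and 0.00263).

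ERBB3, a neuregulin receptor with little kinase activity of its own, went the other way by a small amount. It fell by 0.24 after sißCat-both and by 0.33 after sißCat-mut (adjusted p = 0.0136 and 0.00227), and its change after sißCat-WT was -0.02. ERBB4, a further neuregulin receptor, rose by 0.30 after sißCat-both from a siCtrl level of 3.81, under the median of all probe sets (adjusted p = 0.0282). The ERBB3 call after sißCat-both ended without siCtrl replicate 2 or sißCat-both replicate 2 (changes of -0.21 and -0.20). It also ended when the fit held just sißCat-both and siCtrl (adjusted p = 0.0506). The ERBB4 call ended without siCtrl replicate 1, siCtrl replicate 2 or sißCat-both replicate 3 (adjusted p = 0.0781 to 0.121).

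EREG, which encodes epiregulin, a ligand of EGFR and ERBB4, was the EGF family ligand that was called. Its levels were 4.84, 4.47 and 4.08 after sißCat-both, 4.69, 4.89 and 4.63 after sißCat-mut and 5.79, 5.75 and 5.71 after sißCat-WT, against 5.02, 5.08 and 4.71 after siCtrl. The 3 sißCat-WT arrays stood above all others, and the other groups overlapped. EREG rose by 0.81 ± 0.15 after sißCat-WT (adjusted p = 0.004). It fell by 0.48 after sißCat-both (adjusted p = 0.0289), a call that ended without siCtrl replicate 1 or 2 or sißCat-both replicate 2 or 3 (adjusted p = 0.0613 to 0.133). That call also ended when the fit held just sißCat-both and siCtrl (adjusted p = 0.0793). The EREG change after sißCat-mut was -0.20 (adjusted p = 0.413). EGF, BTC, HBEGF, EPGN, NRG1 and NRG4, the other measured ligands of ERBB receptors, were called in none of the 6 comparisons. EPGN, EREG, BTC and EGF lie on chromosome 4, and of these EREG alone was called in these tests. Whether EREG differed from the others in its change was not tested.

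FGFR1, a receptor of FGF2 and many other FGFs, stood at 5.07, 4.94 and 4.97 on the sißCat-both arrays, 5.64, 5.46 and 5.41 after sißCat-mut and 6.44, 6.49 and 6.52 after sißCat-WT, against 6.31, 6.26 and 6.10 after siCtrl. The sißCat-both arrays were lowest, then sißCat-mut, then siCtrl, and sißCat-WT was highest, with no overlap between groups. FGFR1 fell by 1.23 ± 0.08 after sißCat-both (2.34-fold, adjusted p = 1.39e-07) and by 0.72 ± 0.08 after sißCat-mut (adjusted p = 2.52e-05). The change after sißCat-WT, 0.26, missed the threshold (adjusted p = 0.0717), which it passed without dim genes (0.0368) and with array weights (0.036).

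KLB encodes β-Klotho, the co-receptor that lets FGFR4 respond to FGF19. Its levels were 10.67, 10.82 and 10.82 after sißCat-both, 10.35, 10.51 and 10.43 after sißCat-mut and 9.56, 9.57 and 9.54 after sißCat-WT, against 9.61, 9.79 and 9.88 after siCtrl. All 4 groups were apart from each other. KLB rose by 1.01 ± 0.08 after sißCat-both (2.01-fold, adjusted p = 7.33e-07) and by 0.67 ± 0.08 after sißCat-mut (adjusted p = 4.38e-05), and its change after sißCat-WT was -0.21 (adjusted p = 0.15). FGFR4 itself fell by 0.75 ± 0.08 after sißCat-both (group means 8.83 and 9.58 for sißCat-both and siCtrl, adjusted p = 6.64e-06), and its changes after sißCat-mut and sißCat-WT were -0.17 and 0.11 (adjusted p = 0.148 and 0.494). After sißCat-both the receptor and its co-receptor therefore moved in opposite directions. FGF19, the ligand, was called in 0 of the 6 comparisons and ranged from 5.05 to 5.65 over the 12 arrays.

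FGFR3 rose in all 3 knockdowns, by 0.58 after sißCat-both, 0.31 after sißCat-mut and 0.53 after sißCat-WT (adjusted p = 0.000273, 0.0295 and 0.00264). Its call after sißCat-mut ended with median centring (adjusted p = 0.0617) and without siCtrl replicate 1 or 2 or sißCat-mut replicate 1 or 2 (adjusted p = 0.0527 to 0.127). FGFR2 fell by 0.43 after sißCat-WT to a level of 4.64, against 5.08 after siCtrl (adjusted p = 0.0274), and its changes after sißCat-both and sißCat-mut were 0.16 and 0.17. That call ended without siCtrl replicate 1 or 2 or sißCat-WT replicate 2 or 3 (adjusted p = 0.0655 to 0.129). It also ended when the fit held just sißCat-WT and siCtrl (adjusted p = 0.0722).

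Of the 7 FGF genes, FGF2, a secreted mitogen, rose by 0.78 ± 0.13 after sißCat-both (adjusted p = 0.000376), with arrays at 7.51, 7.35 and 7.65 after sißCat-both against 6.84, 6.79 and 6.52 after siCtrl. Its changes after sißCat-mut and sißCat-WT were 0.16 and 0.07. FGF1, a ligand of all FGF receptors, fell by 0.28 after sißCat-mut at a level of 3.35 against 3.62, both under the median of all probe sets. The FGF1 call was lost in 5 of the 12 leave-one-out fits, those without any 1 siCtrl array or without sißCat-mut replicate 2 or 3 (adjusted p = 0.0503 to 0.0682). FGF8, FGF9, FGF13, FGF18 and FGF19 were not called in any knockdown against siCtrl.

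The hepatocyte growth factor receptor MET stood at 9.59 to 9.98 over all 12 arrays and was called in 0 of the 6 comparisons. MST1R, the receptor of macrophage-stimulating protein, ranged from 5.68 to 6.15 and HGF from 3.22 to 3.65, also without a call. MST1, the gene of macrophage-stimulating protein, had changes of 0.14, 0.29 and -0.31 after sißCat-both, sißCat-mut and sißCat-WT, none called.

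In the insulin and IGF family, the insulin receptor INSR rose after the siRNAs that target the truncated form and fell after sißCat-WT. Its levels were 9.27, 9.34 and 9.42 after sißCat-both, 8.96, 8.96 and 8.90 after sißCat-mut and 8.20, 8.11 and 8.36 after sißCat-WT, against 8.49, 8.56 and 8.56 after siCtrl, with no overlap. The changes were 0.80 ± 0.08, 0.40 ± 0.08 and -0.31 ± 0.08 (adjusted p = 2.88e-06, 0.00153 and 0.0199). The fall after sißCat-WT was not called without siCtrl replicate 2 or 3 or sißCat-WT replicate 1 or 2 (adjusted p = 0.0571 to 0.101).

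IRS1, the docking protein that carries the insulin and IGF1 receptor signal to PI3K, rose in all 3 knockdowns. Its levels were 8.01, 7.89 and 7.86 after sißCat-both, 7.30, 7.57 and 7.47 after sißCat-mut and 7.09, 7.35 and 7.26 after sißCat-WT, against 6.71, 6.68 and 6.49 after siCtrl. The arrays of the 2 single knockdowns overlapped, below all sißCat-both arrays and above all siCtrl arrays. The increases were 1.30 ± 0.10 (2.45-fold), 0.82 ± 0.10 (1.77-fold) and 0.61 ± 0.10 (1.52-fold), at adjusted p = 2.83e-07, 2.73e-05 and 0.00107. IRS2, the other docking protein of the family, ranged from 4.55 to 4.99 and was not called.

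IGF1R, the IGF1 receptor, differed in direction between the siRNAs against the truncated form and against both forms. It stood at 9.04, 9.06 and 9.32 after sißCat-both, 8.32, 8.37 and 8.51 after sißCat-mut and 8.75, 8.78 and 8.92 after sißCat-WT, against 8.68, 8.72 and 8.78 after siCtrl. All sißCat-both arrays lay above the other groups and all sißCat-mut arrays below them, while sißCat-WT and siCtrl overlapped. IGF1R rose by 0.41 after sißCat-both and fell by 0.33 after sißCat-mut (adjusted p = 0.00237 and 0.0139), and the sißCat-mut call ended without siCtrl replicate 3 or sißCat-mut replicate 1 (changes of -0.30 and -0.29). IGF2R, which clears IGF2 from the surface and is no kinase, rose by 0.38 after sißCat-WT (adjusted p = 0.00873), with changes of -0.02 and -0.03 after sißCat-both and sißCat-mut. IGF1, at 3.37 to 3.83 over all arrays, fell by 0.28 after sißCat-both (adjusted p = 0.0399). The IGF1 call was lost without siCtrl replicate 2 or 3, sißCat-WT replicate 1, or sißCat-both replicate 1 or 3 (adjusted p = 0.0509 to 0.157). It was also lost when the fit held just sißCat-both and siCtrl (adjusted p = 0.0681).

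MERTK and TYRO3 belong to the TAM receptors, which bind GAS6 and take part in the clearance of dying cells. MERTK stood at 8.76, 8.73 and 8.90 after sißCat-both, 8.82, 8.94 and 8.88 after sißCat-mut and 9.60, 9.47 and 9.38 after sißCat-WT, against 9.82, 9.69 and 9.71 after siCtrl. The sißCat-both and sißCat-mut arrays overlapped, below all others. MERTK fell by 0.94 ± 0.08 after sißCat-both and by 0.86 ± 0.08 after sißCat-mut (adjusted p = 9.73e-07 and 3.97e-06), and its change after sißCat-WT was -0.26 (adjusted p = 0.0605). TYRO3 fell by 0.63 ± 0.13 after sißCat-both (adjusted p = 0.00219), and its changes after sißCat-mut and sißCat-WT were -0.14 and 0.43 (adjusted p = 0.543 and 0.0582). The ligand GAS6 ranged from 4.67 to 5.02 over all arrays and was not called. AXL, the TAM receptor outside the list of members, had called changes of -0.92, 0.47 and 1.87 after sißCat-both, sißCat-mut and sißCat-WT, of which the sißCat-mut call was lost without siCtrl replicate 1 or 3 or sißCat-mut replicate 2 or 3 (adjusted p = 0.0517 to 0.109).

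DDR2, a receptor activated by collagen, stood at 7.47, 7.65 and 7.52 after sißCat-both, 6.83, 6.92 and 6.84 after sißCat-mut and 6.84, 6.78 and 6.90 after sißCat-WT, against 6.72, 6.35 and 6.36 after siCtrl. The first siCtrl array lay closer to the single knockdowns than to the other siCtrl arrays. DDR2 rose by 1.07 ± 0.10 after sißCat-both (2.09-fold, adjusted p = 1.78e-06), 0.38 after sißCat-mut and 0.36 after sißCat-WT (adjusted p = 0.00941 and 0.0314). Without siCtrl replicate 2 the sißCat-mut change was 0.32 (adjusted p = 0.0509). The sißCat-WT call ended when the fit held just sißCat-WT and siCtrl (adjusted p = 0.0628) and without siCtrl replicate 2 or 3 or any 1 sißCat-WT array (adjusted p = 0.0634 to 0.141). DDR1, the related receptor of epithelial cells, stayed between 7.25 and 7.54 and was not called; with 4 probe sets it was the member with the most, and MST1R with 2 was the other member with more than 1. PDGFA, PDGFC and PDGFD, KIT, RET and ROR1 were not called in any of the 6 comparisons.

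EPHA1, a receptor of ephrin-A ligands, gave the largest difference between groups of all members. Its levels were 8.68, 8.43 and 8.48 after sißCat-both, 8.63, 8.62 and 8.62 after sißCat-mut and 6.57, 6.63 and 6.17 after sißCat-WT, against 7.39, 7.50 and 7.60 after siCtrl. All sißCat-both and sißCat-mut arrays stood above siCtrl and all sißCat-WT arrays below it. EPHA1 rose by 1.03 ± 0.11 after sißCat-both (2.05-fold, adjusted p = 8.5e-06) and by 1.12 ± 0.11 after sißCat-mut (2.18-fold, adjusted p = 7.45e-06), and fell by 1.04 ± 0.11 after sißCat-WT (2.06-fold, adjusted p = 8.14e-05).

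EPHA2, another ephrin-A receptor, changed after sißCat-both. It stood at 7.66, 7.78 and 7.34 after sißCat-both, 8.55, 8.51 and 8.54 after sißCat-mut and 8.68, 8.39 and 8.63 after sißCat-WT, against 8.68, 8.71 and 8.93 after siCtrl. The sißCat-both arrays lay below all others. EPHA2 fell by 1.18 ± 0.11 after sißCat-both (2.27-fold, adjusted p = 2.84e-06), and its changes after sißCat-mut and sißCat-WT were -0.24 and -0.21 (adjusted p = 0.151 and 0.332). EPHB4, a receptor of ephrin-B2, rose by 0.59 after sißCat-both (adjusted p = 0.000295), with changes of 0.20 and 0.26 after sißCat-mut and sißCat-WT that were not called.

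EFNA1 encodes ephrin-A1, a ligand of EPHA2 and other EPHA receptors. It rose by 0.38 after sißCat-both and 0.24 after sißCat-mut and fell by 0.35 after sißCat-WT (adjusted p = 0.00176, 0.0385 and 0.0106). The sißCat-mut call was lost with median centring (adjusted p = 0.0726) and without any 1 siCtrl array or sißCat-mut replicate 1 or 2 (adjusted p = 0.0588 to 0.16), and the sißCat-WT call without sißCat-WT replicate 2 (change -0.30, adjusted p = 0.0591). EPHA4, EPHB3, EFNB1 and EFNB2 were called in none of the 6 comparisons.

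**Figure D3:**
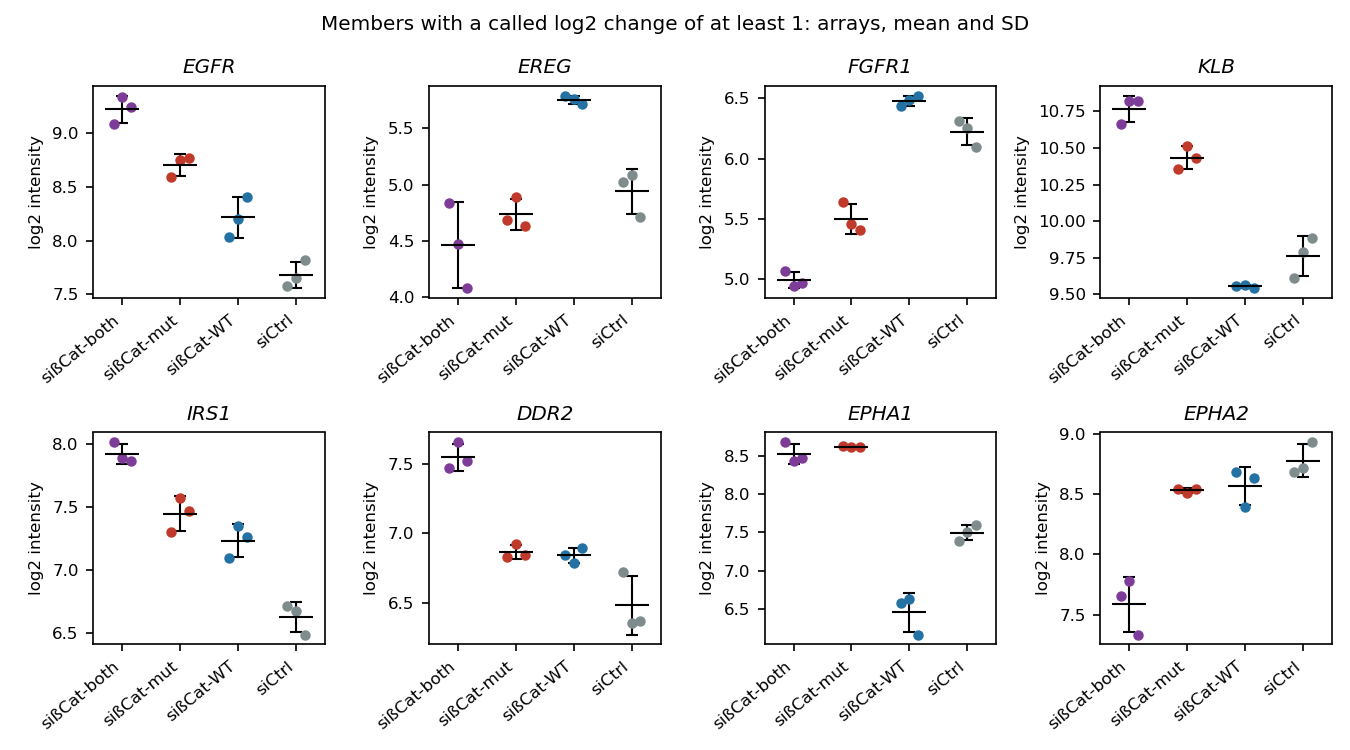
Log2 intensity of the 8 members with a called log2 change of at least 1 against siCtrl or in additivity, by siRNA group. Points are arrays and bars the mean and SD of 3 arrays; each panel has its own axis, which does not start at 0. EPHA1 is lowest after sißCat-WT, EREG highest there, and EPHA2 is low after sißCat-both alone.

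Set directly against each other, the 2 single knockdowns differed in 18 members, 8 higher and 10 lower after sißCat-mut than after sißCat-WT, where 31.0% of all genes were called (14% higher and 17.0% lower). Of these 2 had a log2 difference of at least 1 in size (3.51% of all genes), and the arrays of 22 members did not overlap (43.2% of all genes). EPHA1 was 2.16 ± 0.11 higher after sißCat-mut than after sißCat-WT (4.48-fold, adjusted p = 1.15e-08). KLB was higher by 0.88, INSR by 0.72, FGFR2 by 0.61, MST1 by 0.60, EFNA1 by 0.59, EGFR by 0.49 and PDGFB, a ligand of PDGF receptors, by 0.34. EREG was 1.01 ± 0.15 lower after sißCat-mut than after sißCat-WT (adjusted p = 0.000172), and FGFR1 was 0.98 ± 0.08 lower (adjusted p = 9.57e-07). MERTK, TYRO3, IGF1R, IGF2R, FGF1, ERBB3, FGF13, an intracellular FGF relative that acts on sodium channels, and FGFR4 were lower by 0.28 (FGFR4) to 0.60 (MERTK). For IRS1 and DDR2 the difference was 0.21 and 0.02, with 95% intervals of 0.01 to 0.42 and -0.19 to 0.23 (adjusted p = 0.116 and 0.89).

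The siRNA against both forms and the one against the truncated form differed in 13 members, 8 higher and 5 lower after sißCat-both than after sißCat-mut, where 22.2% of all genes were called (10.6% higher and 11.6% lower). None had a log2 difference of at least 1 in size (0 members called so by limma, against 1.56% of all genes), and the arrays of 16 did not overlap (33.6% of all genes). EPHA2 was 0.94 ± 0.11 lower after sißCat-both (adjusted p = 5.72e-05), FGFR4 0.58 lower, FGFR1 0.51 lower, TYRO3 0.49 lower and PDGFB 0.29 lower. IGF1R was 0.74 ± 0.09 higher (adjusted p = 5.45e-05), DDR2 0.68, FGF2 0.63, EGFR 0.52, IRS1 0.48, INSR 0.40, EPHB4 0.39 and KLB 0.34 higher. EPHA1 and MERTK differed by -0.09 and -0.09, with 95% intervals of -0.33 to 0.15 and -0.26 to 0.09. The calls of TYRO3 (without sißCat-both replicate 3 or sißCat-mut replicate 1 or 2, adjusted p = 0.0587 to 0.0737), PDGFB (without sißCat-mut replicate 1, 0.0703) and EPHB4 (without sißCat-mut replicate 1, 0.052) each depended on single arrays. The PDGFB call also ended when the fit held just sißCat-both and sißCat-mut (adjusted p = 0.0643).

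Whether the change after sißCat-both differed from the sum of the changes after sißCat-mut and sißCat-WT was tested as a departure from additivity. It was called for 12 members, 5 above and 7 below the sum, or 23.1% of the 52, where 16.4% of all genes were called (7.60% above and 8.79% below). For 1 member the departure was at least 1 in size (2.41% of all genes). EPHA1 changed by 1.03 after sißCat-both against a sum of 0.08, a departure of 0.95 ± 0.16 (adjusted p = 0.00112). EREG changed by -0.48 against a sum of 0.61, a departure of -1.09 ± 0.22 (adjusted p = 0.00386). EGFR and IRS1 had no called departure: EGFR changed by 1.55 against a sum of 1.56 (departure -0.02, 95% interval -0.34 to 0.31) and IRS1 by 1.30 against 1.43 (departure -0.13, 95% interval -0.42 to 0.16).

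**Figure D4:**
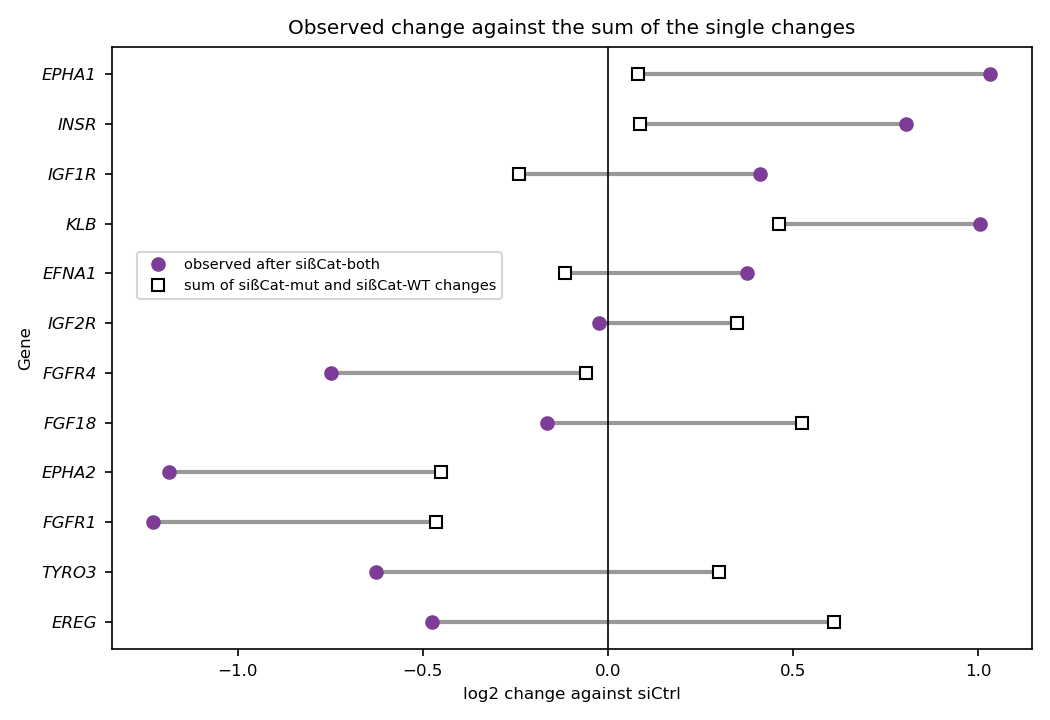
Log2 change against siCtrl observed after sißCat-both (purple circles) and the sum of the changes after sißCat-mut and sißCat-WT (open squares) for the 12 members whose departure from additivity was called. For EPHA1 the observed change is 1.03 and the sum 0.08, and for EREG they are -0.48 and 0.61.

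Genes around the receptors were counted from lists of pathway genes, beside the 33.6%, 25.6% and 10.2% of all genes called after sißCat-both, sißCat-mut and sißCat-WT. The lists were chosen with earlier results of these data known, so their shares describe the lists and do not test them. Of 8 measured regulators of ERBB receptors and of ligand release, 3 rose and 3 fell after sißCat-both, 0 rose and 4 fell after sißCat-mut, and 3 rose and 1 fell after sißCat-WT, or 75%, 50% and 50% called. RHBDF2, which brings the sheddase ADAM17 to the cell surface, changed by -0.80, -0.89 and 0.73. ERRFI1, an inhibitor of EGFR that is itself induced by it, fell by 1.01 after sißCat-both, and LRIG1, which promotes loss of ERBB receptors, fell by 0.59 after sißCat-WT. LRIG3, a relative of LRIG1, rose by 0.87 after sißCat-both and fell by 0.40 after sißCat-mut.

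Of 11 measured feedback genes and targets of ERK, 0 rose and 8 fell after sißCat-both, with a median log2 change of -0.97 against -0.01 over all genes. Called in all were 72.7% of the list after sißCat-both (33.6% of all genes), 54.5% after sißCat-mut (25.6%) and 27.3% after sißCat-WT (10.2%). After sißCat-both IER3, ETV4 and SPRY4, a brake on receptor tyrosine kinase signalling, fell by 2.14, 2.01 and 1.68. After sißCat-mut 3 rose and 3 fell, with EGR1 at 1.71 and FOSL1 at -0.91, and DUSP5, an ERK phosphatase, at 0.71 (adjusted p = 0.0571 without siCtrl replicate 1). After sißCat-WT 3 rose and 0 fell: DUSP5 by 1.37, FOSL1 by 0.97 and IER3 by 0.69. Whether these counts differ between knockdowns was not tested. As this list too was chosen with earlier results of these data known, its share and median are no independent test.

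Of 11 measured adaptors 5 rose and 2 fell after sißCat-both, 2 rose and 0 fell after sißCat-mut, and 3 rose and 1 fell after sißCat-WT. That is 63.6%, 18.2% and 36.4% of the list, against 33.6%, 25.6% and 10.2% of all genes. The count of 2 after sißCat-mut lay near the background. SOS2, an exchange factor for RAS, rose by 0.90, 0.54 and 0.51 in these comparisons, the last not called without siCtrl replicate 2 or sißCat-WT replicate 2 or 3 (adjusted p = 0.0578 to 0.0683). GAB1, a docking protein of MET and EGFR, rose by 0.56 after sißCat-both and fell by 0.41 after sißCat-WT. Of 8 genes of the RAS to ERK cascade, 1 rose and 2 fell after sißCat-both, 2 rose and 1 fell after sißCat-mut, and 1 rose and 0 fell after sißCat-WT, with RRAS at -0.60, 0.82 and 1.01. The shares of the cascade called, 37.5%, 37.5% and 12.5% of 8 genes, were near the background after all 3 siRNAs. Of 4 PI3K and AKT genes PDPK1, the kinase that activates AKT, rose by 0.27 after sißCat-mut and fell by 0.56 after sißCat-WT, and 0 were called after sißCat-both (0 also at an unadjusted p under 0.05). These are 0%, 25% and 25% of the list after sißCat-both, sißCat-mut and sißCat-WT, against 33.6%, 25.6% and 10.2% of all genes.

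Of 6 measured IGF carriers and their regulators, 1 rose and 3 fell after sißCat-both, with IGFBP1 at -2.73 and STC2 at -1.30. The share called was 66.7% after sißCat-both, 33.3% after sißCat-mut and 16.7% after sißCat-WT, against 33.6%, 25.6% and 10.2% of all genes. After sißCat-mut STC2 fell by 0.86 and IGFBP4 by 0.32 (IGFBP4 adjusted p = 0.0586 and 0.0641 without siCtrl replicate 2 and without sißCat-mut replicate 3), and after sißCat-WT IGFBP4 rose by 0.69. Of 4 measured genes that activate HGF and macrophage-stimulating protein, F12 and HGFAC, the HGF activator, rose by 0.94 and 0.64 after sißCat-both and by 1.02 and 0.86 after sißCat-mut, where HPN, which encodes hepsin, also rose, by 0.33. None of the 4 was called after sißCat-WT (limma, 0 also at an unadjusted p under 0.05). The shares of these 4 genes called were 50%, 75% and 0% after sißCat-both, sißCat-mut and sißCat-WT, against 33.6%, 25.6% and 10.2% of all genes. Whether the shares differ between siRNAs was not tested. Of 25 other receptor tyrosine kinase genes measured, 2 rose and 3 fell after sißCat-both, 3 rose and 2 fell after sißCat-mut, and 1 rose and 1 fell after sißCat-WT. These are 20%, 20% and 8% of the list, beside 33.6%, 25.6% and 10.2% of all genes. Most of these genes, KDR, FLT1 and EPHA3 among them, had means under the 40th percentile of all genes. At such levels 19.0% of all genes were called in at least 1 of the 6 comparisons, and 70.8% at or above it. The shares of all genes are therefore no background matched in level for this list. Beside AXL, PTK7, a Wnt co-receptor without kinase activity, fell by 0.60 after sißCat-both and 0.36 after sißCat-mut.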

How the data were processed

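Each array's deposited file holds RMA-normalized log2 intensity values for 53617 probe sets; the authors used Affymetrix Expression Console 1.1, according to the submitters' processing notes. RMA corrects background, gives all arrays the same distribution and summarises probes per probe set, and thus takes out shifts common to most genes. No centring of genes was seen. The sources used here do not name library files or annotation build.

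A single symbol was listed for 16098 probe sets, several for 0 and none for 37519. All 16098 gene identifiers were found in the RefSeq table, and 0 symbols changed. For 779 genes with several probe sets the one with the highest mean was kept, leaving 14884 genes. A single limma model (version 3.58.1, lmFit and eBayes, in R 4.3.3) with 4 group means took in the 12 arrays (8 residual degrees of freedom, median 13.3 with the prior). Two-sided p-values were adjusted by Benjamini-Hochberg over all genes within each of 6 comparisons. The number of arrays limits the precision. Members called with an absolute log2 change of at least 1 against siCtrl or in additivity are given array by array, and up to 3 called genes per pathway list and comparison were eligible to be named. Members and lists were chosen with earlier results of these data known. In a simulation of sißCat-mut against siCtrl over 14884 genes, 64.2% of 67 genes shifted by 0.5 were found, 97.0% of 67 shifted by 1 and 100% of 66 shifted by 2, with 7 false calls among 181. Far fewer genes were shifted there than the 25.6% called after sißCat-mut, and the noise was independent between genes. These rates therefore check the code and do not give the power or error of the calls above. Alternatives were renewed quantile normalization, median centring, dropping genes of low mean (40th percentile), the mean of probe sets, a trended or robust prior, a fit of just the arrays in a comparison, blocking on replicate number, array weights, and each array left out. Promoter letters were searched in RefSeq sequences. Figures used matplotlib 3.10.9 in Python 3.11.15.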

Additional observations from a re-analysis of the deposited data

Results flagged for a closer look

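For 12 members the change after sißCat-both differed from the sum of the changes after the 2 single knockdowns by limma's test of that difference. Above the sum were EPHA1 (0.95), INSR (0.72), IGF1R (0.65), KLB (0.54) and EFNA1 (0.49). Below it were EREG (-1.09), TYRO3 (-0.93), FGFR1 (-0.76), EPHA2 (-0.73), FGFR4 (-0.69), FGF18 (-0.69) and IGF2R (-0.37). FGF18, a ligand of FGF receptors, rested on sißCat-WT arrays at 6.30, 6.03 and 5.51; its adjusted p of 0.0425 became 0.0649 to 0.107 in 10 of the 12 leave-one-out fits, all but those without siCtrl replicate 1 and without sißCat-WT replicate 3. The IGF2R departure (adjusted p = 0.0413) was also lost in 10 of the 12, all but those without siCtrl replicate 3 and without sißCat-WT replicate 1 (adjusted p up to 0.103). With all arrays, it was lost with renewed quantile normalization (adjusted p = 0.0725) and with median centring (adjusted p = 0.0559).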

How the results depend on the processing

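Of 86 called changes of members 68 stayed called under each of the 22 alternatives that could be run for them, 18 lost the call under at least 1, and 0 reversed. Of 70 called changes of pathway genes 59 stayed called, 11 lost the call and 0 reversed. Without dim genes 30 of the 52 members were tested. Leaving out 1 array at a time, the number of members called was 16 to 21 after sißCat-both, 9 to 14 after sißCat-mut, 6 to 11 after sißCat-WT, 18 to 20 for sißCat-mut against sißCat-WT, 10 to 14 for sißCat-both against sißCat-mut and 10 to 12 for additivity. The count of 6 after sißCat-WT, against 10 with all arrays, came without sißCat-WT replicate 2; array weights gave 15. Arrays with the same replicate number deviated together by r = -0.05 to 0.12 for sißCat-both and siCtrl and 0.04 to 0.12 for sißCat-mut and siCtrl. The range was 0.004 to 0.19 for sißCat-WT and siCtrl and 0.06 to 0.12 for sißCat-mut and sißCat-WT. For sißCat-both and sißCat-mut it was 0.01 to 0.12. For sißCat-both and sißCat-WT it was 0.12 to 0.15, with each array best with its own number. These 2 groups were not set directly against each other, but both enter the test of additivity. In each direct comparison of 2 groups at least 1 value was under 0.1. The labels state no pairing, so the main results have no block, additivity included. Most arrays did correlate best with their own number, a hint from the data. With the replicate block the counts were 20, 13, 11, 18, 13 and 13 in the order above. Without the first sißCat-mut and sißCat-both arrays, an alternative chosen after seeing the data, they were 20, 11, 11, 18, 12 and 10. FGF1, IGF1 and ERBB4 lay under the median of all probe sets on every array, and how far signal over background limits their changes was not tested.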
